A study of Homo sapiens with 6 samples.

Results

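Chromosome 5 far from the FGF18 viewpoint comprised every HindIII fragment of that chromosome whose midpoint lay below hg19 position 160852458, at least 10 Mb towards the short-arm end from the viewpoint fragment, chr5:170851908-170853009. Fragments were chosen by position only and were split into the remaining long arm, chr5:49405642-160852457, called the distant q arm here, and the short arm, chr5:1-46405641, called the p arm. Over all libraries, 12472 fragments of the distant q arm and 4362 of the p arm had at least 1 read. These 16834 fragments were part of 206888 fragments with a read on chromosomes 1 to 22 and X. One library listed 4191 (EV replicate 1), 3065 (EV replicate 2), 4326 (S1KO replicate 1), 3522 (S1KO replicate 2), 3870 (DKO replicate 1) or 4777 (DKO replicate 2) of them.

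The study measured, by circular chromosome conformation capture (4C-seq), which fragments had been ligated to the viewpoint at FGF18, the gene of a secreted fibroblast growth factor, in the human leukaemia line K562, derived from chronic myeloid leukaemia. Group EV held an empty vector, S1KO cells lacked silencer1, and DKO cells lacked silencer1 and silencer2, with 2 libraries in each group. The labels call EV cells untreated but also name them, with S1KO and DKO, among the cells that went through CRISPR excision; all 3 groups are K562 and were grown alike. The excised silencers themselves were not checked here. Replicates are described as biological, but no label says whether they came from separate cultures, or whether a knockout is 1 clone or a pool, and a p-value here reflects no more than the scatter among the sequenced libraries, which may be technical.

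In 4C-seq, chromatin is crosslinked and cut, and neighbouring ends are ligated, so that a fragment read together with the viewpoint was close to it in a nucleus. Contacts fall off with distance along the chromosome, yet a locus generally meets its own chromosome more often than others, because each chromosome occupies a territory of its own in the nucleus. Far from a viewpoint, most single contacts occur in few cells, so that the number of different fragments caught in a stretch of several Mb says more than the reads of one fragment, which are largely PCR copies. The centromere separates the arms, and contacts across it are known to be rarer than contacts within an arm. The density used below counts the fragments listed with a read per Mb, and the relative density is that density divided by the density over the 22 other chromosomes of the same library. Neither the copies of each chromosome in K562 nor the number of HindIII sites per Mb was corrected for.

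The libraries held 708503 to 1919737 reads and listed 36612 to 47633 fragments. EV replicate 2 had the most reads of all libraries and the fewest chromosome 5 fragments within 10 Mb of the viewpoint or beyond it towards the long-arm end. Those numbered 1649 and 889 in EV, 1718 and 1435 in S1KO, and 1448 and 1985 in DKO (replicate 1 first), which was 41.3, 21.0, 41.3, 40.6, 42.4 and 66.5 per 1000 fragments on other chromosomes. EV replicate 2 and DKO replicate 2 thus stood apart near the viewpoint.

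The distant q arm was contacted more densely than the other chromosomes in every library. Replicates 1 and 2 held 3235 and 2133 of its fragments in EV, 3325 and 2613 in S1KO, and 3055 and 4015 in DKO. That was 29.0, 19.1, 29.8, 23.4, 27.4 and 36.0 fragments per Mb in the same order, where the other chromosomes held 15.0, 16.0, 15.7, 13.3, 12.9 and 11.2. Relative densities were therefore 1.93 and 1.20 (EV), 1.90 and 1.76 (S1KO), and 2.13 and 3.20 (DKO). EV replicate 2 was the lowest and DKO replicate 2 the highest, the order these 2 libraries also had near the viewpoint. On the log2 scale the mean was 0.95 (SD 0.46, n = 6; exact two-sided sign-flip permutation test, p = 0.03125, the smallest it can give; 0.0469 after Benjamini-Hochberg adjustment over 6 such tests). By reads the relative density was 2.18 and 1.19, 2.14 and 1.89, and 2.35 and 3.97, with a mean log2 of 1.10 (SD 0.56, n = 6) and the same exact p. By fragments the mean log2 was 1.09 once EV replicate 2 was left out, and 0.81 when DKO replicate 2 was, each with an exact p of 0.0625, the smallest that 5 libraries can give.

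The p arm, on the far side of the centromere, was also contacted more densely than the other chromosomes, by a smaller and steadier margin. It held 956 and 932 fragments with reads in EV, 1001 and 909 in S1KO, and 815 and 762 in DKO. Its relative density was 1.37 and 1.26 in EV, 1.38 and 1.47 in S1KO, and 1.36 and 1.46 in DKO, so the 3 groups overlapped or nearly touched. The mean log2 was 0.47 (SD 0.08, n = 6; exact sign-flip permutation test, p = 0.03125, adjusted p = 0.0469), and 0.49 (SD 0.08) by reads. Leaving out the same libraries in turn gave 0.49 and 0.45 by fragments, again with an exact p of 0.0625. Ranked by density beside the 22 other chromosomes, the p arm came second in all 6 libraries and the distant q arm first in 5 of them. In EV replicate 2 chromosome 7 came first, at 20.2 fragments per Mb against 20.1 on the p arm, and the distant q arm came 5th. Elsewhere chromosome 7 was not far below the p arm, at 20.4 against 20.6 in EV replicate 1. It held 21.1 and 17.4 against 21.6 and 19.6 in S1KO, and 16.5 and 15.3 against 17.6 and 16.4 in DKO. The sign-flip test sets the p arm against the other chromosomes pooled, so it cannot tell the p arm from the densest of them.

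Both results depend on counting per Mb. Per fragment listed in any library, which takes the listing itself as the denominator, the mean log2 over the other chromosomes was 0.28 for the distant q arm and 0.05 for the p arm, and neither passed. The density of the distant q arm over that of the p arm, which needs no scaling between libraries, was 1.41 and 0.953 in EV, 1.38 and 1.20 in S1KO, and 1.56 and 2.19 in DKO. Both arms were thus nearly level in EV replicate 2, while the distant q arm stood above the p arm in the other 5 libraries (mean log2 0.49, SD 0.40, n = 6; exact sign-flip permutation test, p = 0.0625).

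**Figure D1:**
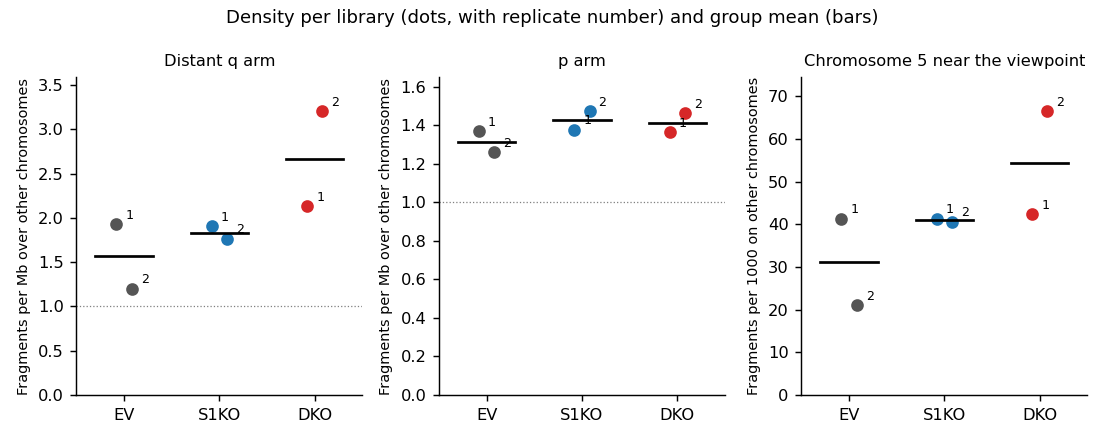
Dots are single libraries with their replicate number and bars are group means, on axes that start at 0. The left and middle panels give the density relative to the other chromosomes for the distant q arm (1.20 to 3.20) and the p arm (1.26 to 1.47), with a dotted line at 1, and the right panel gives chromosome 5 fragments near the viewpoint per 1000 fragments on other chromosomes. EV replicate 2 is lowest and DKO replicate 2 highest in the left and right panels.

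The excess of the distant q arm was concentrated in the 30 Mb nearest to the viewpoint's own surroundings. Between 10 and 20 Mb below the viewpoint the relative density was 3.70 and 1.65 in EV, 3.61 and 3.37 in S1KO, and 4.15 and 6.69 in DKO. Between 20 and 30 Mb it was no lower in 4 of the libraries, at 3.88 and 1.56, 4.00 and 3.29, and 4.40 and 7.83. Between 30 and 40 Mb it was 3.30 and 1.40, 3.01 and 2.69, and 3.27 and 6.57. The profile was therefore a plateau up to about 40 Mb and not an even slope. It then dropped to 1.74 and 1.19, 1.84 and 1.54, and 1.99 and 2.83 between 40 and 60 Mb. From 60 to 80 Mb the 6 values lay between 0.96 (EV replicate 2) and 1.53 (DKO replicate 2), and from 100 to 122 Mb, next to the centromere, between 1.01 and 1.21.

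In absolute numbers, the stretch from 10 to 40 Mb held 1636 and 735 fragments in EV, 1664 and 1245 in S1KO, and 1523 and 2371 in DKO. The stretch from 60 to 122 Mb, which is longer, held 1076 and 1017, 1086 and 958, and 1019 and 1007. The libraries thus differed widely over the near stretch and little over the far one. The near stretch took 50.6% and 34.5% of the distant q arm's fragments in EV, 50.0% and 47.6% in S1KO, and 49.9% and 59.1% in DKO. Across the 22 full 5-Mb windows of the distant q arm, density fell with distance in each library, with a Spearman correlation between -0.63 (EV replicate 2) and -0.90 (DKO replicate 2). These are correlations over windows that share a library, given as a description.

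**Figure D2:**
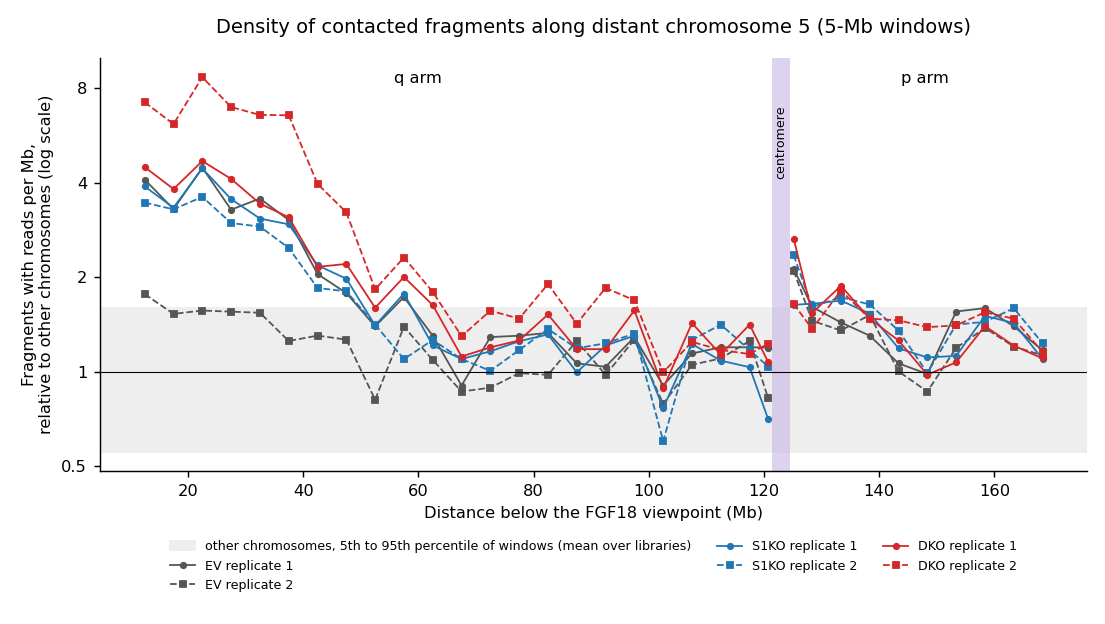
Each point is a 5-Mb window of distant chromosome 5, placed by its distance below the FGF18 viewpoint in Mb, with its density of fragments with reads relative to other chromosomes on a log2-spaced axis; lines join the windows of one library and the grey band spans the 5th to 95th percentile of windows on other chromosomes. All libraries but EV replicate 2 form a plateau above 2 out to about 40 Mb, drop towards the grey band beyond it, and lie mostly in its upper part on the p arm.

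Set beside the 510 full 5-Mb windows of other chromosomes, the plateau windows exceeded every one of them in 5 libraries. The distant q arm had 6, 6, 6, 6 and 8 windows denser than the densest of these in EV replicate 1, S1KO replicates 1 and 2, and DKO replicates 1 and 2, and 0 in EV replicate 2. Of the 9 full windows of the p arm, 0 were denser than that in any library. Its short window beside the centromere, chr5:45000001-46405641, was not counted there. It stood above the densest full window of other chromosomes in EV replicate 2 (33.4 against 33), S1KO replicate 2 (31.3 against 28.2) and DKO replicate 1 (34.1 against 33). Of the 9 full p-arm windows, 0 to 3 per library passed the 95th percentile of the other chromosomes, against 1 to 14 of 22 on the distant q arm.

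In EV cells the densest window was chr5:145852458-150852457, 20 to 25 Mb below the viewpoint, which holds CSF1R and PDGFRB, the genes of receptor tyrosine kinases for colony-stimulating factor 1 and platelet-derived growth factor. It held 67.2 and 25.0 fragments per Mb in EV, 69.6 and 48.0 in S1KO, and 60.4 and 97.6 in DKO, against a densest other-chromosome window of 35.0 and 33.0 in EV. The window nearest to the viewpoint, chr5:155852458-160852457, came second with 61.6 and 28.2 in EV; it holds EBF1, a B-cell transcription factor gene, and IL12B, which encodes an interleukin subunit. The window chr5:135852458-140852457, with the early growth response gene EGR1 and most of the protocadherin clusters, which encode neuronal adhesion proteins, held 53.6 and 24.6. The window chr5:140852458-145852457, with the glucocorticoid receptor gene NR3C1, held 49.4 and 24.8, and chr5:150852458-155852457 held 49.6 and 24.4. In each of these 5 windows EV replicate 1 was far above EV replicate 2, whose values there lay below the densest window of the other chromosomes.

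The 3 thinnest q-arm windows of EV lay in the far part. The window chr5:65852458-70852457, with PIK3R1 (a regulatory subunit of phosphoinositide 3-kinase) and SMN1 (survival of motor neuron), held 13.6 and 12.6 fragments per Mb in EV, 12.0 and 8.00 in S1KO, and 11.4 and 11.2 in DKO. It also held stretches where no library listed any fragment, the longest being chr5:68940280-69335201 with 395 kb, in a region known for near-identical repeats. The window chr5:100852458-105852457 held 13.6 and 13.8 in EV, and the short window beside the centromere, chr5:49405642-50852457, with the LIM-homeobox gene ISL1, held 18.0 and 13.1. These windows were close to the median of other chromosomes, which was 14.8 and 15.9 in EV.

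On the p arm the densest EV window was the short one beside the centromere, chr5:45000001-46405641, at 32.0 and 33.4 fragments per Mb in EV, 25.6 and 31.3 in S1KO, and 34.1 and 18.5 in DKO. It was followed by chr5:40000001-45000000, which holds FGF10, the gene of another secreted fibroblast growth factor, at 24.2 and 23.2 in EV. Next were chr5:10000001-15000000, with the catenin gene CTNND2 and the exchange-factor gene TRIO, at 24 and 22, and chr5:30000001-35000000, with the cadherin gene CDH6, at 19.6 and 24.2. The window chr5:35000001-40000000, with IL7R (interleukin 7 receptor), NIPBL (a cohesin loader) and GDNF (a neurotrophic factor), held 21.6 in both EV libraries. The thinnest p-arm windows were chr5:20000001-25000000, with the cadherin gene CDH10, at 14.8 and 13.8, and chr5:25000001-30000000, with CDH9, at 16.0 in both. The window at the arm's tip, chr5:1-5000000, with the telomerase gene TERT, held 17.6 and 18.0. The EV libraries thus differed far less on the p arm than on the plateau. Density on the p arm was not ordered by distance in the same way in all libraries, with Spearman correlations over 9 windows between -0.16 and -0.72.

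In 1-Mb windows the plateau showed peaks and dips shared by most libraries. The window with most fragments over all libraries was chr5:148852458-149852457, with 93 and 37 fragments in EV, 91 and 62 in S1KO, and 84 and 115 in DKO. The window chr5:151852458-152852457, only 3 Mb away, held 24 and 12, 32 and 29, and 32 and 40. Similarly chr5:143852458-144852457 held 20 and 23, 24 and 17, and 23 and 33, while its neighbour chr5:144852458-145852457 held 63 and 28, 80 and 53, and 84 and 104. The dip at chr5:143852458-144852457 was less marked in EV replicate 2, whose value there was close to that of its neighbour. The windows singled out here were chosen after their values were seen.

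**Figure D3:**
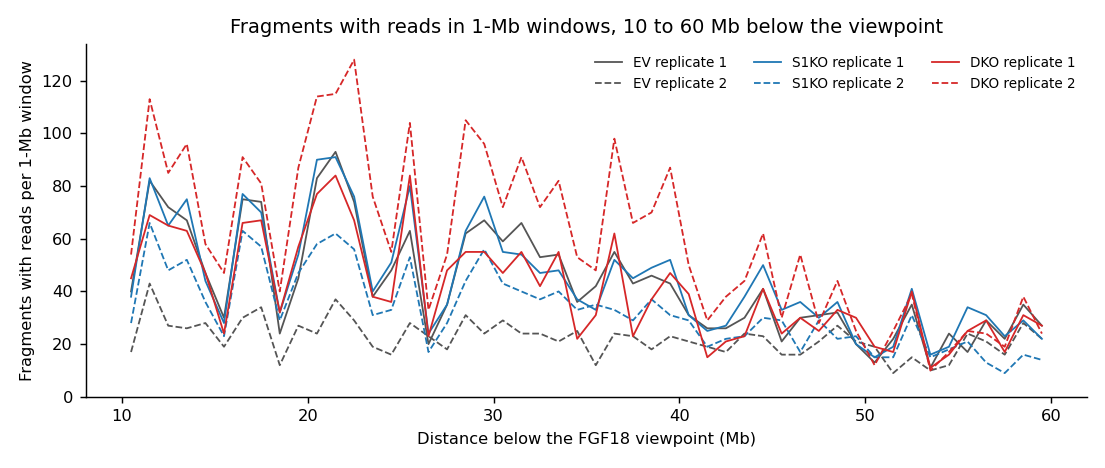
Numbers of fragments with reads per 1-Mb window of the distant q arm, from 10 to 60 Mb below the viewpoint, one line per library. Peaks and dips lie at the same distances in most libraries. An example is the dip with 20 to 33 fragments in 5 of 6 libraries (17 in S1KO replicate 2). It lies beside a peak of 63 to 104 in all but the EV replicate 2 and S1KO replicate 2 lines. Beyond about 40 Mb the lines draw closer, but at chr5:125852458-126852457 they still range from 23 (EV replicate 2) to 62 (DKO replicate 2).

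Single fragments were rarely caught again. Of the distant q arm's fragments, 67.9% were listed in 1 library, 21.3% in 2, 7.48% in 3, 2.32% in 4, 0.786% in 5 and 0.192%, 24 fragments, in all 6. On the p arm 79.7% were listed in 1 library and 0 fragments in 5 or 6, close to the 82.7% in 1 library on other chromosomes, where 2 of 186490 fragments were in all 6. Near the viewpoint 36.5% were in 1 library and 9.52% in all 6. Within a group, the EV libraries shared 329 distant q fragments, 10.2% of replicate 1 and 15.4% of replicate 2. The S1KO libraries shared 551 (16.6% and 21.1%) and the DKO libraries 825 (27.0% and 20.5%), whereas on the p arm the shares were 6.26% to 10.5%. Libraries of different groups shared as many: EV replicate 1 and S1KO replicate 1 had 680 distant q fragments in common (21.0% and 20.5%), EV replicate 1 and DKO replicate 2 had 879 (27.2% and 21.9%), and S1KO replicate 1 and DKO replicate 2 had 930 (28.0% and 23.2%). The least sharing, 241 fragments, was between EV replicate 2 and S1KO replicate 2.

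**Figure D4:**
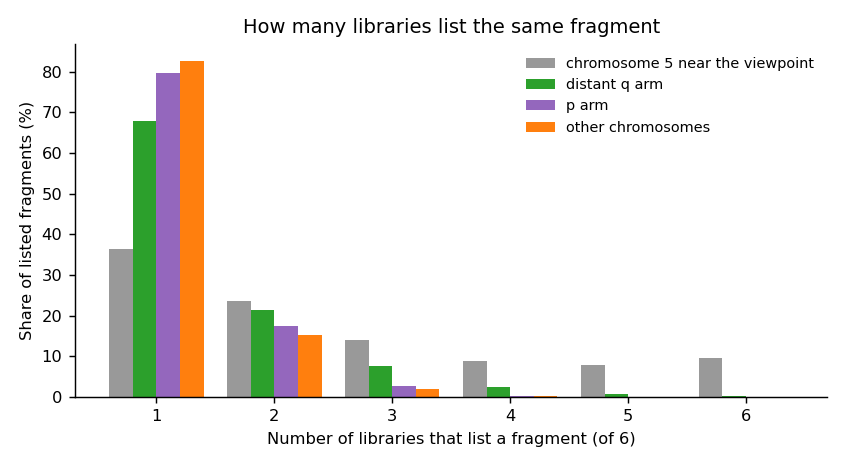
Bars give the percentage of listed fragments found in exactly 1 to 6 of the libraries, for chromosome 5 near the viewpoint, the distant q arm, the p arm and other chromosomes. The distant q arm (67.9% in 1 library) lies between the fragments near the viewpoint (36.5%) and those of other chromosomes (82.7%), and the p arm (79.7%) lies next to the other chromosomes.

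The 24 fragments in all 6 libraries lay 11.2 to 33.2 Mb below the viewpoint, and 9 of them lay between chr5:153571204 and chr5:154381978. They were long, with a median of 7848.5 bp against 2524 bp over all listed fragments of the distant q arm. Fragments listed in 1 library had a median of 2201 bp. By median reads relative to the library's total the first was chr5:151131274-151134776, with 56 and 8 reads in EV, 156 and 33 in S1KO, and 164 and 144 in DKO. It was followed by chr5:154027647-154045041, with 31 and 137, 39 and 55, and 90 and 185 reads. The fragment chr5:154211530-154222766 held 54 and 38, 39 and 44, and 102 and 307. The last 2 of the 5 named were chr5:151154051-151157610, with 19 and 127, 91 and 1, and 31 and 115, and chr5:154200762-154211525, with 28 and 1, 61 and 91, and 75 and 143. Reads of a single distant fragment thus differed widely between libraries of a group, as with the 91 and 1 of S1KO and the 28 and 1 of EV.

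The authors' deposited table gave each fragment a p-value and a q-value in its library. For distant chromosome 5 every deposited q was 1, so 0 fragments on either arm had a q under 0.05 in any library, and the lowest deposited p was 0.349 and 0.464 in EV, 0.243 and 0.196 in S1KO, and 0.752 and 0.370 in DKO. Near the viewpoint, leaving out the 10 kb around it, 11, 5, 17, 15, 8 and 19 fragments had a deposited q under 0.05. On other chromosomes 49, 99, 22, 40, 2 and 0 did, of 39927, 42351, 41582, 35316, 34179 and 29847 listed fragments. So small a share would give few calls among the distant fragments of a library. A deposited p under 0.05 was held by 0% of the distant fragments in each library. On other chromosomes it was held by 2.64% and 4.72% in EV, 1.76% and 2.94% in S1KO, and 0.328% and 0.107% in DKO. How the authors' p depends on distance is not given in the sources used here.

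The knockout groups address whether removing the silencers changes how often FGF18 meets the far parts of its own chromosome. Over the distant q arm, the relative density averaged 1.56 ± 0.516 for EV, 1.83 ± 0.101 for S1KO and 2.67 ± 0.760 for DKO (mean ± SD, n = 2 per group). Both DKO libraries stood above both EV and both S1KO libraries, while S1KO lay between the EV libraries. The log2 difference was 0.78 for DKO against EV (SE 0.45; exact two-sided permutation test, p = 0.333, the smallest that 2 libraries against 2 can give), 0.51 for DKO against S1KO (SE 0.30, exact p = 0.333) and 0.27 for S1KO against EV (SE 0.35, exact p = 1). Single libraries moved these values. Without EV replicate 2 the S1KO against EV difference was -0.08 and that of DKO against EV 0.44. Without DKO replicate 2, DKO against EV stood at 0.48 and DKO against S1KO at 0.22; without replicate 1 of DKO the latter was 0.81. On the p arm the means were 1.31 ± 0.078 for EV, 1.42 ± 0.067 for S1KO and 1.41 ± 0.068 for DKO, with log2 differences of 0.12 (S1KO against EV, SE 0.08), 0.10 (DKO against EV, SE 0.08) and -0.01 (DKO against S1KO, SE 0.07). The first 2 of these were 0.06 and 0.04 without EV replicate 2. Adjusted over the 18 comparisons of this kind, by exact permutation tests, every p was at least 0.667.

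The ratio to other chromosomes moved with how much of the library lay near the viewpoint. Per chromosome 5 fragment near the viewpoint, the distant q arm held 1.96 and 2.40 fragments in EV, 1.94 and 1.82 in S1KO, and 2.11 and 2.02 in DKO. On this scale EV replicate 2 was the highest library and DKO lay within the range of EV. The p arm held 0.580 and 1.05 in EV, 0.583 and 0.633 in S1KO, and 0.563 and 0.384 in DKO, so here both DKO libraries lay below both EV libraries, and EV replicate 1 was close to S1KO and DKO replicate 1. The stretch from 10 to 40 Mb held 0.992 and 0.827, 0.969 and 0.868, and 1.05 and 1.19 per near fragment, and both DKO libraries lay above the 4 others. What part the number of near-viewpoint fragments has in the DKO difference was not tested.

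By 5-Mb window, numbers of fragments with reads were tested with edgeR's quasi-likelihood test over all 584 windows of the genome that held enough fragments, scaled to the fragments on other chromosomes. All 33 windows of distant chromosome 5 were among them, 23 on the q arm and 10 on the p arm, including 1 short window on each arm beside the centromere. The threshold was a Benjamini-Hochberg adjusted p of 0.05 over the 584 windows.

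For DKO against EV, 0 of the 33 windows passed, where 0.856% of all windows tested did. Unadjusted, 15 of 33 had a p under 0.05 by edgeR, and 57 of 584 over the genome; DESeq2 called 0 with 8 under 0.05. All 23 q-arm windows had a positive log2 fold change on this scaling, with a median of 0.52 (0.01 to 1.20), against 0.04 on the p arm and 0.02 over all windows. Leaving out 1 library moved the q-arm median both ways. It was 0.35 without EV replicate 2 and 0.37 without DKO replicate 2, but 0.63 without EV replicate 1 and 0.59 without DKO replicate 1. Scaled to fragments near the viewpoint instead, 17 of the 23 were negative and the median was -0.35, against -0.86 over all windows. In 17 of the 33 windows (15 on the q arm, 2 on the p arm) both DKO libraries were higher than both EV libraries relative to other chromosomes, against 18.8% of all windows. In 0 of 33 were both lower, against 18.5%.

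The differences were larger in the windows nearest to the viewpoint. The 8 q-arm windows nearest to it, out to 50 Mb, had log2 fold changes for DKO against EV of 0.83 to 1.20 with a median of 1.02, and SEs of 0.23 to 0.60. This cut was placed after the values were seen and lies beyond the end of the plateau, so the split itself is only a description. The other 15 had a median of 0.34 (0.01 to 0.64). Near windows were thus further apart between groups but also more variable between libraries. Without EV replicate 2 the medians were 0.59 and 0.28, and without DKO replicate 2 they were 0.58 and 0.23. Scaled to fragments near the viewpoint, the near 8 windows had a median of 0.24 and the other 15 a median of -0.54. Such a rescaling shifts all windows of a library alike, so the gap between near and far windows is no independent result.

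The windows named here, among those with the lowest p for DKO against EV, lay at the edge of the plateau or beyond it. The window chr5:120852458-125852457 held 134 and 101 fragments in EV, 155 and 120 in S1KO, and 142 and 181 in DKO, a log2 difference of 0.83 for DKO against EV (SE 0.23, edgeR adjusted p = 0.094; -0.04 when scaled to fragments near the viewpoint). It was 0.60 with EV replicate 2 left out, and 0.54 with DKO replicate 2 left out. The window chr5:115852458-120852457 held 105 and 65, 110 and 94, and 103 and 103 (log2 0.64, SE 0.19, edgeR adjusted p = 0.14; -0.15 on the other scaling). EV replicate 2 alone was low there, and without it the log2 fold change was 0.29. The window chr5:85852458-90852457, with the Ras regulator gene RASA1 and the transcription factor gene MEF2C, held 100 and 78, 103 and 91, and 98 and 107 (log2 0.57, and 0.35 without EV replicate 2; -0.28 on the other scaling). The window chr5:105852458-110852457, with the tyrosine kinase gene FER, stood at log2 0.52, with an edgeR adjusted p of 0.15; on the other scaling it stood at -0.34. None of these 4 windows passed the test.

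The differences changed with the libraries used. In the fits without 1 library, the group left with a single library was assumed to vary like the other groups, so log2 fold changes are given here. Without EV replicate 1 the median over the q-arm windows for DKO against EV was 0.63. It was 1.07 at chr5:115852458-120852457 and 1.09 at chr5:120852458-125852457. Without DKO replicate 1 the q-arm median was 0.59, and without S1KO replicate 1 or S1KO replicate 2 it was 0.52 each time. Without EV replicate 2 or DKO replicate 2 it was 0.35 and 0.37.

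**Figure D5:**
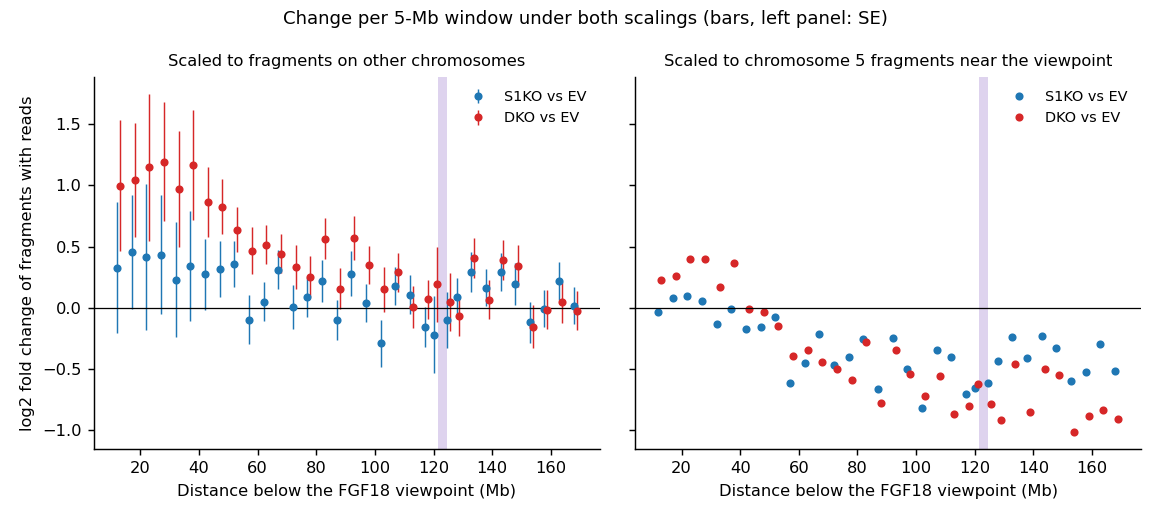
Points are the 33 windows of 5 Mb (2 of them shorter) by distance below the viewpoint in Mb, with the log2 fold change in fragments with reads of S1KO (blue) and DKO (red) against EV; bars in the left panel are SEs and the purple strip is the centromere. Scaled to other chromosomes (left), the nearest 8 DKO windows lie between 0.83 and 1.20; scaled to chromosome 5 fragments near the viewpoint (right), they lie between -0.04 and 0.40 and most others fall below 0.

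For S1KO against EV, 0 of 33 windows passed by fragments (0% of all windows), and 0 of 33 had an unadjusted edgeR p under 0.05, against 55 of 584; DESeq2 with its size factors also called 0, with 0 under 0.05. The median log2 fold change was 0.22 over the q-arm windows and 0.13 over the p-arm windows, and -0.02 over the q-arm windows without EV replicate 2. With EV replicate 1 left out instead, the q-arm median was 0.32. Both S1KO libraries were higher than both EV libraries in 11 of 33 windows, against 17.6% of all windows, and lower in 2, against 16.4%. The lowest p values belonged to chr5:100852458-105852457, with 68 and 69 EV fragments against 86 and 73 (log2 0.31 with SE 0.16, edgeR adjusted p = 0.61), and to chr5:115852458-120852457 (log2 0.36, and 0.01 without EV replicate 2). Then came chr5:25000001-30000000, with 80 and 80 in EV and 93 and 90 in S1KO (log2 0.29), and chr5:35000001-40000000, with 108 and 108 in EV and 132 and 115 in S1KO (log2 0.29). None passed, and all 4 were below 0 when scaled to fragments near the viewpoint (-0.08 to -0.24).

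For DKO against S1KO, 0 of 33 windows passed by fragments (0% of all windows), with 6 at an unadjusted edgeR p under 0.05, against 59 of 584; DESeq2 called 0, with 2 under 0.05. The q-arm median was 0.41, that of the p arm -0.02, and that of the q arm scaled to fragments near the viewpoint 0.04. Without DKO replicate 2 the q-arm median was 0.20 and 2 windows had a p under 0.05; without S1KO replicate 2 it was 1 window, and without DKO replicate 1 it was 10. Both DKO libraries were higher in 18 of 33 windows, against 22.1% of all windows, and lower in 2, against 19.2%. The lowest p values belonged to chr5:105852458-110852457, with 95 and 84 S1KO fragments against 105 and 101 (log2 0.47 with SE 0.16, edgeR adjusted p = 0.36), and to chr5:110852458-115852457, with the tumour suppressor gene APC, with 139 and 73 in S1KO and 129 and 130 in DKO (log2 0.57). S1KO replicate 2 was low in the second, and without it the log2 fold change was 0.28. The windows chr5:120852458-125852457 (log2 0.51), chr5:65852458-70852457 (0.44) and chr5:125852458-130852457, with the lamin gene LMNB1 (0.59), followed. Without DKO replicate 2 the lamin gene's window stood at 0.09, chr5:120852458-125852457 at 0.22 and chr5:65852458-70852457 at 0.36. These comparisons share libraries, so their medians are not independent of each other.

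Reads per window gave the same counts of calls by edgeR but not by DESeq2. By edgeR, 0 of 33 windows passed for S1KO against EV (0% of all windows), 0 for DKO against EV (0.342% of all windows) and 0 for DKO against S1KO (0%), with 1, 15 and 8 windows at an unadjusted p under 0.05. DESeq2 with its size factors called 0, 3 and 0 windows of reads, with 1, 12 and 6 under 0.05 before adjustment. By edgeR the q-arm median log2 fold change of reads for DKO against EV was 0.48. It was 0.36 without EV replicate 2 and 0.33 without DKO replicate 2, but 0.81 without EV replicate 1. The 8 of DKO against S1KO became 0 when either DKO replicate 2 or S1KO replicate 2 was dropped, and 3 when S1KO replicate 1 was. For S1KO against EV by reads the q-arm median log2 fold change was 0.09. It was 0.43 without EV replicate 1 and -0.12 without EV replicate 2. For DKO against EV the windows with the lowest p values included chr5:115852458-120852457 (log2 0.78, SE 0.22, edgeR adjusted p = 0.077), chr5:130852458-135852457, with the cytokine genes IL4, IL5 and CSF2 (log2 1.35, SE 0.43), chr5:140852458-145852457, with NR3C1 (log2 1.47, SE 0.47), and chr5:120852458-125852457 (0.76). The cytokine window held 3270 and 4331 reads in EV, 6122 and 5462 in S1KO, and 8698 and 11869 in DKO, from 229 and 100, 231 and 165, and 200 and 369 fragments. These counts are not scaled, and the libraries differed in total reads. Relative to other chromosomes, its reads per Mb were 3.15 and 1.35 in EV, 3.30 and 2.92 in S1KO, and 3.61 and 7.83 in DKO. By fragments, DKO replicate 1 stood at 3.11 and EV replicate 1 at 3.04. These 2 libraries were thus much closer than their read counts. The cytokine window stood at 0.86 and the NR3C1 window at 0.97 with EV replicate 2 left out, and at 0.68 and 0.87 with DKO replicate 2 left out. The window chr5:115852458-120852457 stood at 0.38 and chr5:120852458-125852457 at 0.43 without EV replicate 2. Scaled to reads near the viewpoint, all 4 were negative (-0.25 to -1.01).

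For DKO against S1KO by reads, chr5:110852458-115852457 (log2 0.75, edgeR adjusted p = 0.23), chr5:105852458-110852457 (0.56), chr5:125852458-130852457 (0.69) and chr5:130852458-135852457 (0.88) were among those with the lowest p. Without DKO replicate 2 they stood at 0.46, 0.41, 0.15 and 0.22. For S1KO against EV by reads these included chr5:115852458-120852457 (log2 0.51, edgeR adjusted p = 0.57), chr5:25000001-30000000 (0.31), chr5:110852458-115852457 (-0.30) and chr5:120852458-125852457 (0.33). They stood at 0.10, 0.22, -0.42 and 0.0020 without EV replicate 2. None of these passed, and each positive value was negative when scaled to reads near the viewpoint.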

How the data were processed

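The 6 libraries were digested with HindIII and DpnII and sequenced on a MiSeq, per the labels' protocols. Bowtie2 2.2.5 and hg19 are named in the submitters' processing notes; the caller of interactions is not given in the sources used here. A library's file lists its HindIII fragments with reads, and the authors deposited for each an unnormalized read count. Their RPMs column, per the file headers, was not proportional to the reads, was taken as a score and was not used. The p-values and q-values are those the authors deposited per fragment and library.

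Groups came from sample titles. Members and lists were chosen with earlier results of these data known. Fragments were assigned by midpoint; q-arm windows of 5 Mb were counted down from 160852457 and p-arm windows up from 1. Chromosome 5 within 10 kb of the viewpoint fragment was left out. 1 fragment between the arms was in neither. Fragments with at least 1 read, and reads, per window were fitted by edgeR (4.0.16, R 4.3.3; quasi-likelihood, all 6 libraries in 1 fit, library size the fragments or reads on the other chromosomes, no TMM, at least 60 fragments over the 6 libraries). Relative densities were set against each other by exact permutation (Python 3.11.15, numpy 2.4.6, pandas 2.3.3, scipy 1.17.1, plots with matplotlib 3.10.9); 2 libraries against 2 cannot go below 0.333. The window test was tried on simulated counts with a common spread for all windows. It therefore does not cover windows where the libraries varied more, such as those of the plateau. Alternatives were other library sizes, TMM, DESeq2 1.42.0, other filters, window sizes, read minimums, reads capped at the 90th percentile, only the 4 libraries compared, the replicate block and leaving out each library. Scaling to chromosome 5 near the viewpoint was added after seeing the data.

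Named windows were, per comparison and measure, those past the threshold and otherwise the lowest p up to 5, of which some are not reported here; in EV, the 5 densest and 3 thinnest per arm; and, of fragments in all 6 libraries, the 5 with the highest median reads relative to the library's total. Landmark genes are from textbook map positions. No hg19 sequence or annotation was used here.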

Additional observations from a re-analysis of the deposited data

How the results depend on the processing

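Of the densities over other chromosomes in all libraries, the calls for both arms were lost per fragment listed in any library (mean log2 0.28 by fragments and 0.43 by reads for the distant q arm, 0.047 and 0.068 for the p arm) and with any 1 library left out, where the exact p was 0.0625, the smallest that 5 libraries can give. The mean log2 then ran from 0.81 to 1.09 by fragments and 0.92 to 1.27 by reads for the distant q arm, and from 0.45 to 0.49 and 0.46 to 0.51 for the p arm. Windows of distant chromosome 5 called for DKO against EV by fragments numbered 0 as reported, where 5 were called over all windows. With 10-Mb windows 1 was called (6 over all windows), and with only the 4 libraries compared 1 (7). With at least 3 reads per fragment 3 were called (11), and with at least 10 reads 1 (8). Fits that left out 1 library are not among these counts and are given as log2 fold changes. By fragments the q-arm median for DKO against EV was 0.63 without EV replicate 1 and 0.59 without DKO replicate 1. It was 0.35 without EV replicate 2 and 0.37 without DKO replicate 2. By reads they numbered 3 with DESeq2 and its size factors, 1 with DESeq2 and the reported library sizes, and 1 with capped reads. By reads the q-arm median for DKO against EV was 0.81 without EV replicate 1, 0.36 without EV replicate 2 and 0.33 without DKO replicate 2. For S1KO against EV it was 0.43 without EV replicate 1 and -0.12 without EV replicate 2. For DKO against S1KO it was 0.21 without DKO replicate 2. These alternatives that called windows differ in samples, counts or tool, and the cause was not tested.

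With 1 library left out, the S1KO against EV difference ran from -0.075 to 0.61 (fragments) and -0.12 to 0.76 (reads) for the distant q arm over other chromosomes, and from -0.13 to 0.43 and -0.14 to 0.59 for the q arm over the p arm. For the p arm over other chromosomes, DKO against S1KO ran from -0.062 to 0.037 by fragments and -0.13 to 0.014 by reads, and DKO against EV from -0.033 to 0.11 by reads; with at least 10 reads per fragment DKO against S1KO was 0.012. By reads, chr5:110852458-115852457 for S1KO against EV ran from -0.84 to 0.10.

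Scaled to chromosome 5 near the viewpoint, an alternative chosen after seeing the data, the log2 fold changes of the windows named in the report turned negative, except the 5 of DKO against S1KO by fragments and 1 that was negative before. Such a rescaling shifts all windows of a library alike. Near-viewpoint fragments per 1000 on other chromosomes were 41.3 and 21.0 in EV, 41.3 and 40.6 in S1KO, and 42.4 and 66.5 in DKO. Near-viewpoint reads per 1000 were 154 and 48.7, 163 and 133, and 216 and 391. EV replicate 2 was lowest and DKO replicate 2 highest in both, and the part of single libraries in the sign change was not tested. By fragments, DKO against EV was -0.036 at chr5:120852458-125852457, -0.15 at chr5:115852458-120852457, -0.28 at chr5:85852458-90852457 and -0.34 at chr5:105852458-110852457. S1KO against EV was -0.22 at chr5:100852458-105852457, -0.075 at chr5:115852458-120852457, -0.23 at chr5:25000001-30000000 and -0.24 at chr5:35000001-40000000. By reads, DKO against EV was -0.89 at chr5:115852458-120852457, -0.39 at chr5:130852458-135852457, -0.25 at chr5:140852458-145852457 and -1.01 at chr5:120852458-125852457. DKO against S1KO was -0.20 at chr5:110852458-115852457, -0.40 at chr5:105852458-110852457, -0.35 at chr5:125852458-130852457 and -0.20 at chr5:130852458-135852457. S1KO against EV by reads was -0.23 at chr5:115852458-120852457, -0.62 at chr5:25000001-30000000 and -0.46 at chr5:120852458-125852457.

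No label says that equal replicate numbers mark pairs, and they were not taken as pairs: deviations of same-numbered libraries correlated at 0.039 (EV and S1KO), -0.24 (EV and DKO) and -0.088 (S1KO and DKO) over 584 windows, and at 0.43, -0.77 and -0.51 over the 33 of distant chromosome 5. With the replicate block, 0 windows of distant chromosome 5 were called in each of the comparisons. The differences between groups of the densities, for example 0.78 for the distant q arm in DKO against EV, cannot change with the block. The mean of the differences between same-numbered libraries equals the difference of the group means, so this is no check of them. Of the alternatives for the main comparisons, 269 were sorted as unchanged, 28 as weaker, 15 as moved and 9 as reversed. For numbers of windows called, unchanged means only that the number stayed at 0, whatever the direction of the values. For differences between groups, no setting could pass the threshold, so only their direction could change, and with the replicate block not even that. SEs of the log2 fold changes for DKO against EV by fragments ran from 0.15 to 0.60 on the q arm, which limits what 2 libraries per group could show.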
